A study of Homo sapiens with 6 samples.

Results

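The 10 genes described here encode enzymes that make, use or remove malonyl-CoA or that handle the fatty acids on either side of it: ACLY, ACACA, ACACB, FASN, SCD, MLYCD, CPT1A, CPT2, ACSL3 and ACSM3. They are 10 of the 18318 genes in the deposited count table, and all 10 were among the 12797 genes with enough reads to be tested. MLYCD and ACSM3 were picked because they showed large and opposite differences between the groups compared here, so their values are given as a description and without a test. The other 8 genes were chosen for their function.

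RNA was sequenced from A375, an established human melanoma line, in 6 libraries. In 3 of them the cells carried a pcDNA3.1 plasmid for wild type SLNCR, a long non-coding RNA listed as LINC00673, and in 3 they carried the backbone alone (empty vector). In both groups the plasmid was delivered with a lipid reagent, had a puromycin resistance gene and, per the labels, a CAG promoter, and the cells spent 48 h in medium with serum and 2 µg/mL puromycin before RNA extraction. The comparison therefore covers a short overexpression in cells of a single line, and the controls were transfected and selected too. The study asked which genes change with SLNCR and which transcription factors their promoters point to, with E2F1 as the factor of interest.

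Library totals lay between 9287450 and 10822083 counts. LINC00673 itself had 193 to 195 reads with the empty vector and 1786 to 2569 reads with SLNCR, in the direction of the labels. Levels below are CPM, read counts scaled to library size. The labels call the cells epithelial, while EPCAM, CDH1 and KRT5 had at most 4, 2 and 6 reads in any library and the abundant genes of the epithelial list were the keratins KRT8 (130.1 to 188 CPM) and KRT18 (297 to 412 CPM). Of the melanocyte and neural crest list (9 of 11 genes in the table), MITF was present at 76.5 to 104 CPM and SOX10 at 11.7 to 14.8 CPM. PAX3 had up to 130 reads in a library. PMEL, MLANA, TYRP1 and DCT had at most 13, 16, 8 and 6 reads in any library, and S100A1 and ERBB3 at most 21 and 18. Summed adipocyte and hepatocyte markers stayed between 0.991 and 2.95 CPM, and of the immune markers CD68 had 109 to 134 CPM, CD3E at most 1 read, CD14 at most 7 and LYZ at most 10. In bulk RNA, fewer cells of a type and less RNA per cell cannot be told apart.

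Malonyl-CoA is the building block from which fatty acids are extended and, at the same time, the signal that holds back their oxidation. ACLY makes cytosolic acetyl-CoA from citrate, the acetyl-CoA carboxylases ACACA and ACACB turn it into malonyl-CoA, and FASN joins malonyl units into palmitate, into which SCD then introduces a double bond. MLYCD returns malonyl-CoA to acetyl-CoA. Malonyl-CoA blocks CPT1, the gate of the carnitine shuttle through which long-chain fatty acids reach the mitochondrial matrix, where CPT2 releases them for oxidation. Before any of these fates a free fatty acid must be joined to coenzyme A, which ACSL3 does for long chains and ACSM3 for medium chains. Tumour cells, melanoma included, commonly run this synthesis pathway at high rates.

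Because the study asked about E2F1, promoter sequences of these genes were searched for E2F sites and other motifs. RefSeq (GRCh38.p14) gave promoter windows for 8 of the 10 genes, and not for FASN or ACSM3. The 250 bases before each start were searched on both strands for E2F sites (TTTGGCGC and TTTCGCGC), the E-box CACGTG, the CCAAT box, the GC box GGGCGG and the sterol regulatory element, and overlapping matches were each counted. Shown are MLYCD, which had the lowest fold change of the group, ACACA at its most upstream start, which held the only E2F match, and ACLY at the more upstream of its RefSeq starts. Capitals mark every match, 5′ to 3′ on the strand of the gene.
MLYCD, chr16:83898865-83899114, plus strand: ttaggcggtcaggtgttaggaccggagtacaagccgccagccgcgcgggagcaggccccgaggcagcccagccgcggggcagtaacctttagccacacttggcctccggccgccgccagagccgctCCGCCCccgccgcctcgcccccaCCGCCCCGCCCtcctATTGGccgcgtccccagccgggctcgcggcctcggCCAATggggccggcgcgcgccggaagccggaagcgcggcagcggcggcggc
ACACA, chr17:37406837-37407086, minus strand: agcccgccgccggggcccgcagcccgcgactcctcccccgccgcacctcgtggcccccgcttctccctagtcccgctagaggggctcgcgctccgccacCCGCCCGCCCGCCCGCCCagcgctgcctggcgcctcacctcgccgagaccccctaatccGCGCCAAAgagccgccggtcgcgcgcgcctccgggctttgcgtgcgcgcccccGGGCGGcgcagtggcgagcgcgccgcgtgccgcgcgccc
ACLY, chr17:41919023-41919272, minus strand: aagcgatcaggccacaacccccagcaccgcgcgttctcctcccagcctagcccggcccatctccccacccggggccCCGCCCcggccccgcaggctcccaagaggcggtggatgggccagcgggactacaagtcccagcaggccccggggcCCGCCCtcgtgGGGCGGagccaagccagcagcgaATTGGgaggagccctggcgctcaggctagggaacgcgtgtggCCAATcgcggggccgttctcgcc

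The MLYCD window held 3 GC boxes and 2 CCAAT boxes and no E2F, E-box or sterol element letters. The ACACA window held TTTGGCGC on the opposite strand, from 92 to 85 bases before the start, with 5 GC boxes. The ACLY window held 3 GC boxes and 2 CCAAT boxes. TTTGGCGC occurred in 0.55% of 35116 promoter windows of this length and TTTCGCGC in 0.439%, while GGGCGG occurred in 42.6%, CCAAT in 32.0%, CACGTG in 6.34% and the sterol element in 0.0342%. These matches are letters in a window and were not measured as binding. The mean level of ACACA, which carries the E2F letters, was 156 CPM with the empty vector and 163 CPM with SLNCR.

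Per length of transcript, FASN, ACLY and SCD were the most abundant of the 10 genes. In empty vector cells FASN had 81.3 ± 4.6 CPM per kilobase of exon (SD, n = 3), above 96.6% of tested genes, and ACLY 70.8 ± 4.5, above 95.8%. SCD followed at 34.5 ± 0.48, ACSL3 at 15.8 ± 0.74 and ACACA at 11.4 to 12.4 CPM per kilobase. The genes of the carnitine shuttle were lower, CPT1A at 6.36 ± 0.0724 and CPT2 at 4.06 ± 0.293. ACACB (0.831 ± 0.0421), ACSM3 (0.784 ± 0.136) and MLYCD (0.421 ± 0.0601) closed the order, and MLYCD stood above only 5.69% of tested genes. The empty vector libraries of neighbours in this order did not overlap, except for ACACB and ACSM3. With the length of the longest transcript in place of all exons, CPT2 (9.34) moved above CPT1A (7.98) and ACSM3 (1.85) above ACACB (1.29), and the other positions were the same. The annotation gives MLYCD a transcript of 13038 bases, and with that length its level was 0.522. The annotation used for counting is not given in the sources used here, so levels per length are uncertain, that of MLYCD included. In proportion, CPT2 and ACSM3 moved most between these lengths.

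Each of 5 members led its enzyme family in these cells. ACACA made up 93.5% ± 0.128 (SD, n = 3) of acetyl-CoA carboxylase signal per length with the empty vector and 93.9% ± 0.985 with SLNCR (difference 0.427 percentage points, two-sided exact permutation p = 0.7, where 3 against 3 libraries cannot give less than 0.10). The difference changed sign without SLNCR replicate 3 (-0.112 percentage points). CPT1A, the liver form of CPT1, held 98.1% ± 0.994 and 99.3% ± 0.661 of the CPT1 signal, and the muscle form CPT1B and the brain form CPT1C had at most 4 and 5 reads in any library. SCD held 96.3% ± 0.624 and 96.4% ± 0.342 against its paralog SCD5.

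The acyl-CoA synthetases were less one-sided. ACSL3 held 38.8% ± 0.394 of the long-chain signal with the empty vector and 36.4% ± 1.07 with SLNCR, and ACSL4, which prefers arachidonic acid, was next at 11.3 ± 0.251 and 14.7 ± 1.34 CPM per kilobase. ACSM3 held 70.0% ± 4.83 and 75.0% ± 3.79 of the medium-chain signal. Its relatives ACSM1, ACSM4, ACSM5 and ACSM6 had at most 6 reads each in any library, too few to be tested, so a difference in them was not detectable at this depth.

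**Figure D1:**
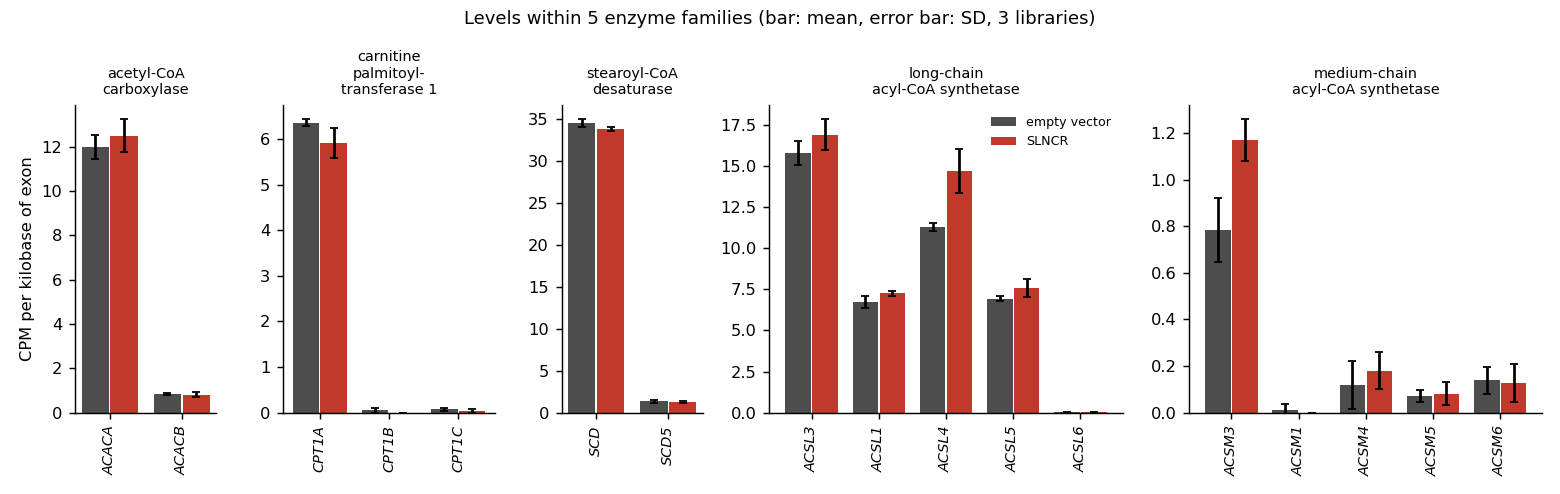
Mean level per kilobase of exon (CPM per kilobase, linear axis from 0, a separate scale for each family) of the genes of 5 enzyme families in empty vector (grey) and SLNCR libraries (red), with SD as error bars (n = 3 each). ACACA, CPT1A and SCD held between 93.1% and 99.7% of their family's signal in every library, while ACSL3 shared its family with ACSL4, ACSL1 and ACSL5.

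The main comparison asked whether these genes differ when SLNCR is overexpressed. Of the 8 genes chosen by function, FASN and ACLY were lower after SLNCR, 0 were higher and 6 did not pass (edgeR quasi-likelihood test, Benjamini-Hochberg adjusted over all 12797 genes). Across all tested genes 16.5% passed, 8.84% as higher and 7.67% as lower, so 2 of 8 is not far from the background. The median log2 fold change of the 8 genes was -0.04, beside -0.01 for all tested genes. FASN, ACLY and CPT1A lay lower in every SLNCR library than in any empty vector library, and 0 of the 8 lay higher in every one. Of all tested genes 19.1% lay lower in this way and 19.7% higher, 38.9% in either direction.

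ACLY, the supplier of acetyl-CoA, had 397, 356 and 356 CPM in empty vector replicates 1, 2 and 3 and 337, 330.1 and 297 CPM in SLNCR replicates 1, 2 and 3. Every SLNCR library lay below every empty vector library. ACLY fell by 0.20 on the log2 scale (adjusted p = 0.031 in edgeR, SE 0.0589), from 369.6 ± 23.5 to 322 ± 21.5 CPM (SD, n = 3 each). The gene lies on chromosome 17 from 41866908 to 41930542 (GRCh38, minus strand), and a non-coding gene on the opposite strand shares 156 of its exon bases.

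ACACA, the cytosolic carboxylase that supplies synthesis, had 159, 161 and 148 CPM with the empty vector and 161, 154 and 173 CPM with SLNCR. The groups overlapped, with means of 156 and 163 CPM, and the log2 fold change was 0.06 (adjusted p = 0.492 in edgeR, SE 0.0600). ACACB, the carboxylase at the mitochondrial outer membrane whose product restrains CPT1, had 12.6, 12.2 and 11.4 CPM with the empty vector and 13.3, 11.5 and 10.1 CPM with SLNCR. Its SLNCR libraries spanned the empty vector range on both sides (log2 fold change -0.04, adjusted p = 0.82 in edgeR, SE 0.129), and the sign turned without SLNCR replicate 3 (0.04).

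FASN, the multi-domain fatty acid synthase, had 800.3, 769.7 and 715 CPM in empty vector replicates 1, 2 and 3 and 617, 653 and 561 CPM in SLNCR replicates 1, 2 and 3. The groups did not overlap, and SLNCR replicate 3 was the lowest library. FASN fell by 0.32 on the log2 scale (adjusted p = 0.0137 in edgeR, SE 0.0574), to 80.1% of its level with the empty vector. It lies on chromosome 17 from 82078333 to 82098332 (minus strand) and had 5037 to 8023 reads per library, the most of the 10 genes. SCD, the desaturase that acts on the product of FASN, had 182, 186 and 187 CPM with the empty vector and 181, 182 and 180.2 CPM with SLNCR. Its 6 libraries were the most alike of all 10 genes, and its log2 fold change was -0.03 (adjusted p = 0.706 in edgeR, SE 0.0511).

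The calls for FASN and ACLY were lost in 5 of 15 alternative analyses each. FASN and ACLY no longer passed when empty vector replicate 1 was left out (edgeR adjusted p = 0.106 and 0.188), nor when empty vector replicate 2 (0.0804 and 0.0927) or SLNCR replicate 1 (0.0543 and 0.0647) was, in the same fits in which at most 2 of all tested genes passed. The differences themselves stayed, at -0.28, -0.31 and -0.33 for FASN and -0.15, -0.23 and -0.24 for ACLY in these 3 fits. GC makes up 65.3% of the FASN transcript and 52.2% of the ACLY transcript, and once each library was corrected for GC content, FASN stood at -0.04 ± 0.0337 (SE) and ACLY at -0.12 ± 0.045, with edgeR adjusted p-values of 0.587 and 0.192. With that correction 0.0156% of all tested genes passed. The keratin genes KRT8 and KRT18 also fell as counted, by 0.31 and 0.29 on the log2 scale. With the GC correction they stood at -0.16 and -0.15 (edgeR adjusted p = 0.121 and 0.102). The summed epithelial list (13 of 14 genes in the table, 4 tested) went from 564 to 629.9 CPM down to 442 to 505 CPM. Summed, 7 abundant small or nuclear RNAs had 31614 to 36632 CPM with the empty vector and 30981 to 33213 CPM with SLNCR. The part of the keratins, the epithelial list and these RNAs in the result was not tested.

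**Figure D2:**
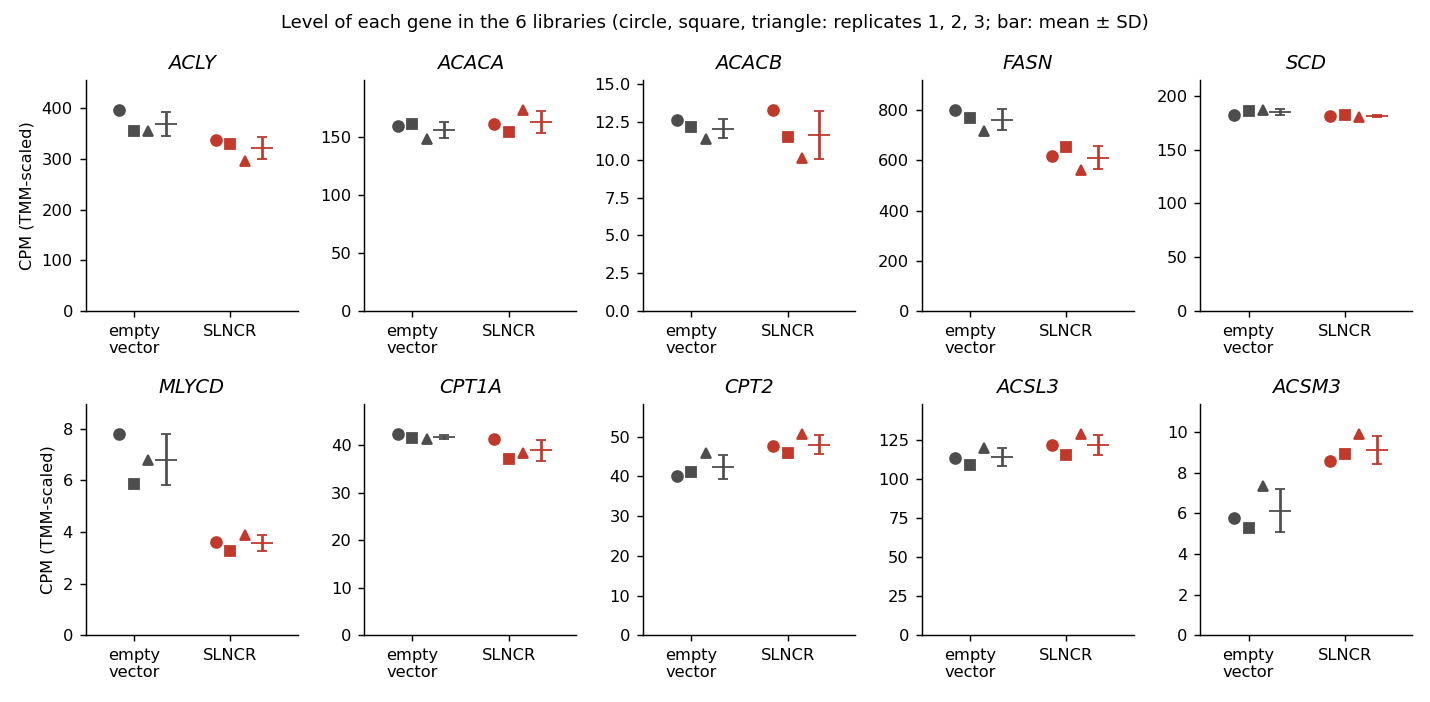
Level of each of the 10 genes in CPM (TMM-scaled, linear axes from 0, 1 panel per gene) in empty vector (grey) and SLNCR libraries (red), with circle, square and triangle for replicates 1, 2 and 3 and the mean ± SD beside them. FASN, ACLY, CPT1A and MLYCD lie lower in every SLNCR library, ACSM3 lies higher, and the other 5 genes overlap. MLYCD and ACSM3 were chosen for their differences in this comparison. Of all tested genes 19.1% lie lower in this way and 19.7% higher, 38.9% in either direction.

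MLYCD, the decarboxylase that removes malonyl-CoA, was counted at 78, 53 and 62 reads in empty vector replicates 1, 2 and 3 and at 38, 34 and 35 reads in SLNCR replicates 1, 2 and 3. These correspond to 7.78, 5.84 and 6.79 CPM and to 3.61, 3.27 and 3.89 CPM. No library of one group reached the range of the other. The log2 fold change was -0.93 (SE 0.185), or 52.6% of the empty vector level, the largest difference of the 10 genes and from the smallest counts. It ranged from -1.03 to -0.78 over 15 alternative analyses, and was -0.70 at its smallest when the GC correction was combined with leaving out a library. With the GC correction it was -0.79 (SE 0.187), for a transcript with 55.9% GC, while 1838 tested genes between 55% and 60% GC had a median of -0.17 as counted. MLYCD was chosen for this difference, which is why no p-value is given.

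MLYCD lies on chromosome 16 from 83899126 to 83927026 (plus strand). Of the 4 tested genes on each side 2 rose and 6 did not pass, beside 8.84% of all tested genes called higher. The 2 that rose, HSBP1 and MPHOSPH6, have 44.5% and 38.3% GC. The nearest gene before it, HSBP1 (79.4 kb away), a regulator of heat shock factor, rose by 0.28 on the log2 scale (adjusted p = 0.0217 in edgeR). The nearest after it, OSGIN1 (21.3 kb away), had a log2 fold change of -0.26 (adjusted p = 0.228 in edgeR, SE 0.154). MPHOSPH6 also rose (0.39, edgeR adjusted p = 0.0143), while PLCG2 (0.55), CDH13 (0.08), MBTPS1 (0.02), HSDL1 (0.16) and DNAAF1 (0.65) did not pass. HSBP1 stood at 0.21, MPHOSPH6 at 0.20 and OSGIN1 at -0.02 with the GC correction. An overlapping gene on the same strand, AC009119.2, shares 301 exon bases with MLYCD and was not analysed here.

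The carnitine shuttle genes differed little. CPT1A, which forms acylcarnitines at the outer membrane and is the target of malonyl-CoA, had 42.3, 41.6 and 41.4 CPM with the empty vector and 41.3, 37.0 and 38.4 CPM with SLNCR. The groups only just separated, with SLNCR replicate 1 beside the lowest empty vector library, and the log2 fold change was -0.10 (adjusted p = 0.35 in edgeR, SE 0.0762). CPT2, the matrix enzyme of the same shuttle, had 40.1, 41.2 and 45.9 CPM with the empty vector and 47.6, 45.8 and 50.6 CPM with SLNCR. SLNCR replicate 2 fell just below empty vector replicate 3, and the log2 fold change was 0.18 (adjusted p = 0.113 in edgeR, SE 0.0784). CZIB, on the opposite strand, shares 99 exon bases with CPT2 and an antisense gene shares 1151, and neither was analysed here.

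ACSL3, a long-chain synthetase of the endoplasmic reticulum and lipid droplets, had 114, 109 and 120.1 CPM with the empty vector and 122, 116 and 129 CPM with SLNCR. The groups overlapped, and the log2 fold change was 0.09 (adjusted p = 0.296 in edgeR, SE 0.0623). CPT2 and ACSL3 have the lowest GC content of the 10 genes, 38.5% and 38.1%. Their sign turned with the GC correction, to -0.01 for CPT2 and -0.11 for ACSL3 (edgeR adjusted p = 0.949 and 0.286), and that of ACACB turned to 0.08.

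ACSM3, a mitochondrial synthetase for medium-chain acids, was counted at 58, 48 and 67 reads in empty vector replicates 1, 2 and 3 and at 90, 93 and 89 reads in SLNCR replicates 1, 2 and 3. In CPM these were 5.79, 5.29 and 7.33 against 8.56, 8.94 and 9.90, with the groups apart. The log2 fold change was 0.57 (SE 0.158), a ratio of 1.48, and it lay between 0.47 and 0.72 over 15 alternative analyses and between 0.38 and 0.60 when the GC correction was combined with leaving out a library. With the GC correction it was 0.47 (SE 0.153), for a transcript with 43.2% GC, and 2860 tested genes between 40% and 45% GC had a median of 0.12 as counted. As for MLYCD, the gene was chosen for this value and no p-value is given.

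ACSM3 also lies on chromosome 16, on the other arm (20610243 to 20797581, plus strand), in a crowded stretch. ERI2, an exonuclease gene on the opposite strand, shares 867 exon bases with it, and reads of the pair cannot be told apart where the counting is not known to use strand. ERI2 had 35.8 CPM with the empty vector and 42.3 CPM with SLNCR (log2 fold change 0.24, adjusted p = 0.0547 in edgeR, SE 0.083). THUMPD1, which lies within the span of ACSM3 without shared exons, rose by 0.19 (edgeR adjusted p = 0.0429). Further out, CCP110 rose by 0.33 (edgeR adjusted p = 0.0139), and KNOP1 (-0.14), IQCK (0.16), GPRC5B (0.09), REXO5 (-0.23) and DCUN1D3 (0.21) did not pass. Across all tested genes 8.84% were called higher. THUMPD1 stood at 0.04, CCP110 at 0.14 and ERI2 at -0.03 with the GC correction.

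**Figure D3:**
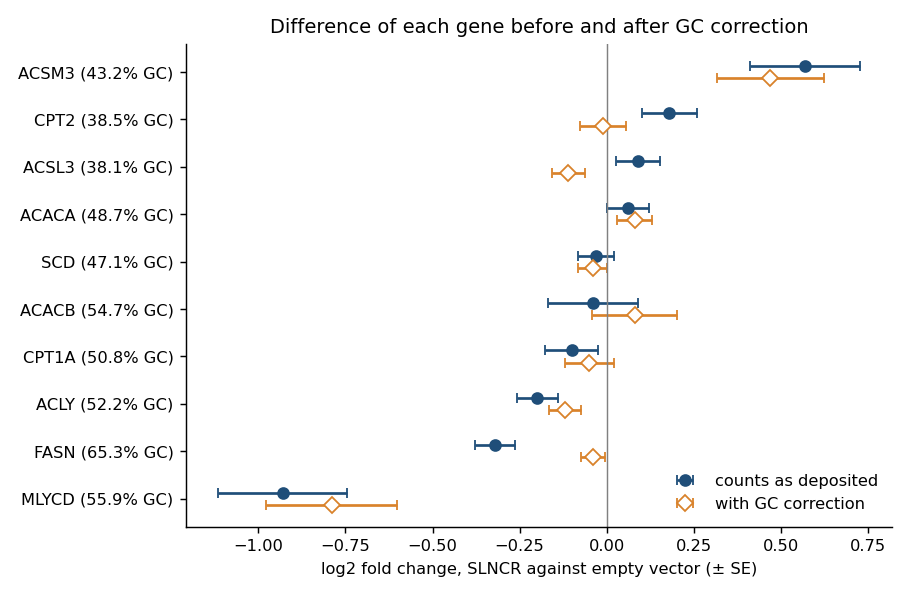
Log2 fold change (SLNCR against empty vector, ± SE, 3 libraries per group) of the 10 genes from the counts as deposited (filled circles) and with GC correction (open diamonds), with the GC content of the longest transcript beside each name. MLYCD (-0.93 and -0.79) and ACSM3 (0.57 and 0.47) kept their sign with the correction, FASN went from -0.32 to -0.04, and CPT2, ACSL3 and ACACB crossed 0.

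The genes whose profile over the 6 libraries was closest to these genes were found by the root mean square distance of centred log2 CPM among 10624 genes whose mean count reached 50. For MLYCD they were the pseudogene PI4KAP2 (distance 0.15), CENPV (0.172) and the antisense RNA NDST1-AS1 (0.175). For ACSM3 they were SLC24A5 (0.0725), the pseudogene DUXAP10 (0.076) and BBS10 (0.0919). The likeness rests on 6 libraries, and none of these 6 genes belongs to the fatty acid lists below.

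The wider pathway was followed in 12 lists with 201 genes besides the 10, of which 161 were tested. After SLNCR 14 rose, 15 fell and 132 did not pass (edgeR), or 18.0% against 16.5% of all tested genes, with a median log2 fold change of -0.04. Every gene that fell had a transcript GC content of at least 50% (15 of 73, with 0 that rose), and every gene that rose was below it (14 of 88, with 0 that fell). Over all tested genes 15 rose and 905 fell among 5551 at or above 50% GC, and 1114 rose and 75 fell among 7239 below it. With the GC correction 0 of the 161 passed in edgeR and their median was 0.01. In each of 3 fits, those leaving out empty vector replicate 1, empty vector replicate 2 and SLNCR replicate 1, 0 of the 161 passed, and without empty vector replicate 3 the counts were 8 higher and 9 lower.

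**Figure D4:**
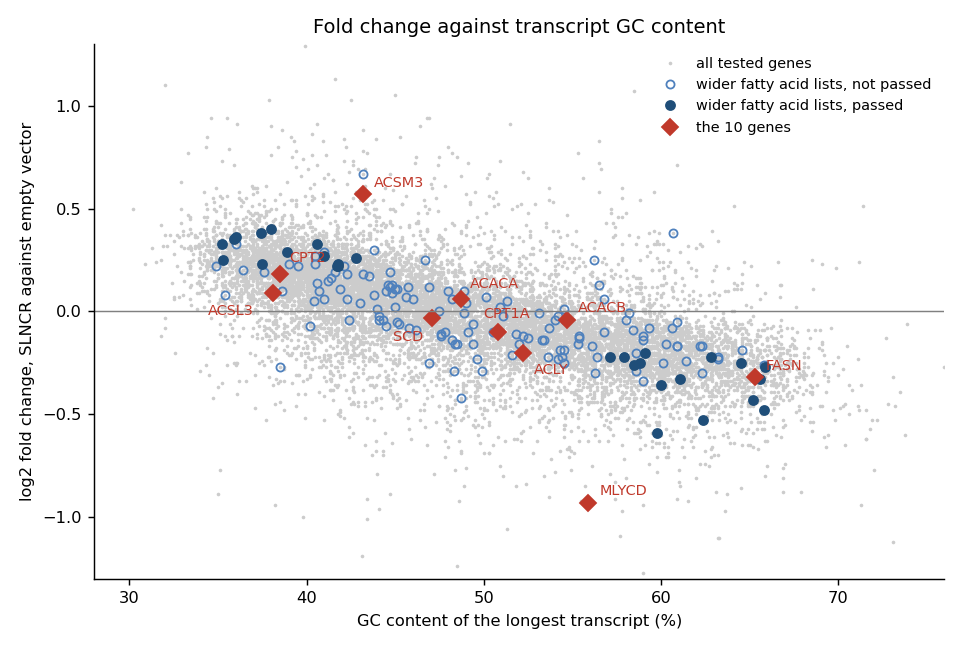
Log2 fold change (SLNCR against empty vector) against the GC content of the longest transcript for all tested genes (grey, with 10 genes outside the plotted range), the wider fatty acid lists (blue, filled where the edgeR adjusted p is below 0.05) and the 10 genes (red diamonds). Fold changes run from higher at low GC content to lower at high GC content. MLYCD (-0.93 at 55.9% GC) and ACSM3 (0.57 at 43.2% GC) were chosen for large differences in this comparison. Their place beyond the medians of -0.17 and 0.12 for their GC range follows from that choice.

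Of 11 tested genes that supply acetyl-CoA and malonyl-CoA 3 fell and 0 rose, beside 7.67% of all tested genes called lower. Their median was -0.14 as counted and -0.04 with the GC correction, and their summed level was 804 to 820.3 CPM with the empty vector and 800.1 to 861 CPM with SLNCR. SLC25A1, the carrier that exports citrate for ACLY, fell by 0.33 on the log2 scale (adjusted p = 0.0203 in edgeR, SE 0.0864). Pyruvate carboxylase (PC) also fell by 0.33, and MCAT, which loads malonyl groups in mitochondrial synthesis, fell by 0.36. MCAT was the only gene of mitochondrial fatty acid synthesis and lipoylation that passed (1 of 9 lower, 0 higher, median 0.05). GC content was 65.6% for SLC25A1 and 61.1% for PC, and with the correction SLC25A1, PC and MCAT stood at -0.05, -0.11 and -0.16.

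Of 15 tested elongation and desaturation genes 3 rose and 0 fell, beside 8.84% of all tested genes called higher, and their median was 0.10 as counted and 0.01 with the GC correction. HSD17B12, the ketoreductase of the elongation cycle, rose by 0.40 (adjusted p = 0.0137 in edgeR, SE 0.0816), the dehydratase HACD2 by 0.33 and ELOVL5, which elongates polyunsaturated chains, by 0.22. With the correction HSD17B12 stood at 0.19, HACD2 at 0.17 and ELOVL5 at 0.09. Among 12 tested acyl-CoA synthetase and uptake genes 2 rose and 1 fell, beside 8.84% and 7.67% of all tested genes called higher and lower. Their median was -0.19 as counted and -0.06 with the GC correction. ACSL4 rose by 0.38 (adjusted p = 0.0137 in edgeR, SE 0.0708) and the acyl-CoA binding gene ACBD3 by 0.23, while the transporter SLC27A1 fell by 0.59 (adjusted p = 0.0174 in edgeR, SE 0.145). With the correction SLC27A1 stood at -0.39 and ACSL4 at 0.16.

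Among oxidation genes the counts were small, beside 16.5% of all tested genes called, and were not tested against that share. Of 5 tested carnitine shuttle genes besides CPT1A and CPT2, 0 passed (edgeR, median -0.07), with the carnitine transporter SLC22A5 at -0.25 and TMLHE, of carnitine synthesis, at 0.04. Of 21 mitochondrial beta-oxidation genes 1 rose and 1 fell (median -0.07): ACADSB rose by 0.29 and ACADVL, which opens the oxidation of very long chains, fell by 0.25. Of 13 peroxisomal genes 0 passed (edgeR, median 0.01), with HSD17B4 at 0.10. Of 7 acyl-CoA thioesterases 0 passed (edgeR, median 0.12), with PPT1 at 0.12 and ACOT7 at -0.17. Storage and lipolysis genes were split, with 3 of 24 higher and 3 lower (median -0.07): PLIN4, a lipid droplet coat gene, fell by 0.53, the lipase gene PNPLA2 by 0.25 and AGPAT2 by 0.27, while GPAM, the first acyltransferase of glycerolipid synthesis, rose by 0.27 and the lysosomal lipase LIPA by 0.26. After correction for GC content ACADSB stood at 0.10 and ACADVL at -0.06. PLIN4 stood at -0.30, GPAM at 0.13 and LIPA at 0.15, and the sign of PNPLA2 and AGPAT2 turned (0.02 each).

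Regulators of fatty acid synthesis passed in both directions. Of 19 tested genes of the SREBP1, ChREBP and LXR list 5 fell and 2 rose (median -0.11, and 0.02 with the GC correction). Of all tested genes 7.67% were called lower and 8.84% higher, and the list was not tested against these shares. Its median GC content was 54.4%, beside 47.9% for all tested genes. SREBF1, which encodes the main activator of FASN, SCD and ACACA, went from 96.6 ± 2.82 to 83.0 ± 2.60 CPM (SD, n = 3 each) and fell by 0.22 (adjusted p = 0.0268 in edgeR, SE 0.0612). SREBF2 and MLXIP fell by 0.22 each, while MBTPS2, the protease that releases SREBP, rose by 0.35 and NFYB by 0.36. With the GC correction SREBF1 stood at 0.02, SREBF2 at -0.06, MLXIP at -0.05, MBTPS2 at 0.12 and NFYB at 0.13.

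AMPK phosphorylates and switches off both acetyl-CoA carboxylases. Of 14 tested genes of AMPK and its upstream kinases 3 rose and 1 fell (median 0.18, and 0.08 with the GC correction). Beside them, 8.84% of all tested genes were called higher and 7.67% lower, and the difference from these shares was not tested. The catalytic subunit genes PRKAA1 and PRKAA2 rose by 0.25 and 0.33 and the scaffold gene CAB39 by 0.22, while STK11, the upstream kinase LKB1, fell by 0.48 (adjusted p = 0.0217 in edgeR, SE 0.127). PRKAA1 and PRKAA2 have 35.3% and 35.2% GC and STK11 65.8%, and with the correction the values were 0.00, 0.08 and -0.20. Among 12 PPAR and PGC-1 regulators 1 fell, 0 rose and 11 did not pass (median -0.08), beside the same shares of all tested genes.

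**Figure D5:**
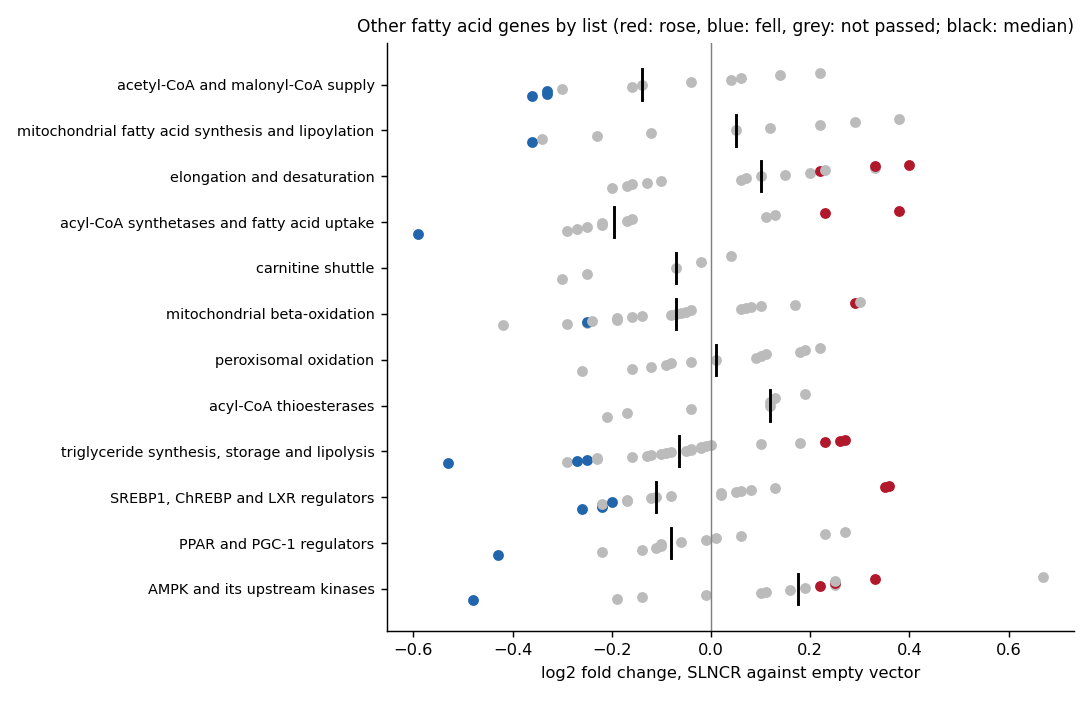
Log2 fold change (SLNCR against empty vector) of each tested gene in 12 lists of fatty acid metabolism and its regulators, with red for genes that rose, blue for genes that fell, grey for genes that did not pass (edgeR adjusted p of at least 0.05) and a black line at each list's median. List medians as counted run from -0.19 for synthetases and uptake to 0.18 for AMPK genes (-0.06 and 0.08 with the GC correction). Of the 12 lists 5 hold calls in both directions and 3 hold none.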

How the data were processed

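The authors deposited a table of raw read counts per gene. The tools listed, per the submitters' processing notes, are DESeq2 1.24.07, STAR and cutadapt, and the build is GRCh38. What each did is not given in the sources used here, nor are the counter, annotation or strandedness. Rows naming no gene (1857, with 2.15% to 2.59% of counts) and 63 rows identical to their neighbour (mean count of at least 10) were left out. Symbols, coordinates, lengths and GC content came from GENCODE 29 (GRCh38), with GC content that of the longest transcript.

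Groups were compared with edgeR 4.0.16 (R 4.3.3): quasi-likelihood F-test, TMM, filterByExpr, no covariate, two-sided, adjusted p threshold 0.05. SE is the log2 fold change over the root of F. The GC correction subtracted a loess curve per library (span 0.5). CPM are TMM-scaled. Alternatives were other size factors, no filter, a mean count of at least 50, DESeq2 1.42.0, limma-voom (limma 3.58.1), a replicate block and leaving out each library.

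Libraries of a group differed by more than sampling noise (chi-square per degree of freedom 1.78 to 6.94) and were all kept. The labels call them biological replicates without saying how cultures were separated, so p-values measure the spread between these samples. Named genes were the members, up to 5 genes per list with the smallest adjusted p (where none passed, the 2 with the highest mean count), 4 neighbours per side, and the 3 closest profiles. The members, lists and rules were chosen with earlier results of these data known. DBI, LIPT2, CZIB, AC009119.2, EPCAM, CDH1, KRT5, CD3E, CD14, LYZ and the family members are named outside that rule, after values were seen. So are PMEL, MLANA, TYRP1, DCT, S100A1, ERBB3 and PAX3. Some genes that this rule names are not reported here.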

Additional observations from a re-analysis of the deposited data

How the results depend on the processing

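Other scaling (RLE or upper quartile factors), no filter, a mean count of at least 50, DESeq2 and limma-voom kept the direction of all 10 genes, and FASN and ACLY passed in 10 of 15 alternatives each. The counts of 1131 higher and 981 lower genes, and of 14 and 15 in the wider lists, moved by over 1.5 times as follows. With the GC correction 1 and 1 genes passed, and 0 and 0 of the wider lists. In the wider lists DESeq2 called 8 lower. Leaving out a library gave 1 to 1722 higher and 0 to 1644 lower genes, and 0 to 20 higher and 0 to 18 lower in the wider lists. The GC correction without each library, chosen after seeing the data, gave 0 to 2 higher and 0 to 2 lower genes without empty vector replicates 1, 2 and 3 or SLNCR replicate 1, 293 and 375 without SLNCR replicate 2, and 45 and 56 without SLNCR replicate 3, with 0 to 3 higher and 0 to 3 lower in the wider lists. The cause was not tested.

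ACACB (-0.04) turned to 0.08 with the GC correction and 0.08 with correction and block. Leaving out a library gave ACACB -0.15 to 0.04 as counted, and with the GC correction 0.09, 0.09, 0.06, -0.03, 0.11 and 0.14 (empty vector, then SLNCR replicates). CPT2 turned to -0.01 under both GC settings and lay between -0.03 and 0.02 when a library was also left out. ACSL3 turned to -0.11 under both and lay between -0.14 and -0.08, with -0.10 without empty vector replicate 3 or SLNCR replicate 2. The ACACA share difference ran from -0.112 to 0.853 percentage points without single libraries. Same-numbered libraries deviated together at r = 0.159, -0.0189 and 0.37. The value of replicates 3 was the highest of all pairs across the groups, and empty vector replicate 1 correlated more with SLNCR replicate 2 (0.348). These values do not settle whether the numbers mark a pairing. With the replicate block 1772 and 1751 genes were called (wider lists 28 lower), and with block and GC correction 161 and 246 (wider lists 1 and 2). Low counts of MLYCD and ACSM3 limit the precision of their fold changes.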

Other observations

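Among the other fatty acid genes, DBI and LIPT2 stood against the GC trend of the table (a choice made with their values in view). DBI, an acyl-CoA binding protein, has a low GC content (38.5%) and averaged 36.2 ± 2.58 CPM with the empty vector and 29.9 ± 3.85 CPM with SLNCR (SD, n = 3), with overlapping groups. It stood at -0.27 on the log2 scale as counted and at -0.47 with the GC correction (adjusted p = 0.059 and 0.0609 in edgeR). LIPT2, of lipoic acid synthesis, has 60.7% GC and stood at 0.38 and 0.59 (adjusted p = 0.192 and 0.168 in edgeR). Neither gene passed in either fit.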
